A study of Mus musculus with 248 samples.

Results

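The blood of 7 control mice was compared between month 0, before induction, and month 10, the last sampling, with each mouse as its own reference. These 14 samples were chosen as the control libraries labelled T0 and T10 of the training cohort, out of 77 control libraries of that cohort and 248 libraries in the whole series. The mice were C57BL/6 littermates of a leukemia model in which a conditional Cbfb-MYH11 fusion is switched on by a Cre recombinase under the Mx1 promoter, which answers to interferon in blood-forming and other cells. The controls lacked 1 or both of the 2 transgenes, and their genotypes are labelled CW (4 mice), HW (2 mice) and WT (1 mouse), codes that the labels do not spell out. There were 2 females and 5 males. All 7 controls received poly(I:C) like the model mice, at 14 mg/kg in 7 doses, with an age at induction of 4 to 8 weeks. A month 10 sample thus differs from its month 0 sample by the treatment, by age and by repeated bleeding from the eye. No untreated mice were in the comparison, so these cannot be told apart. The labels name the sample PBMC, mononuclear cells of peripheral blood. How these cells were separated from the blood, and whether it was done alike in every month, is not given in the labels, so a change of preparation cannot be told apart from these either. From the samples total RNA was sequenced after depletion of ribosomal RNA.

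Circulating blood holds many more red cells and platelets than leukocytes. Mature mouse red cells have no nucleus, but the youngest of them, the reticulocytes, still carry RNA for globin, for heme synthesis and for the membrane skeleton, and platelets carry RNA from the megakaryocytes that shed them. A preparation of mononuclear cells is meant to leave both out, together with granulocytes. Because sequencing depth is shared among all RNAs of a library, RNA from red cells lowers by arithmetic the CPM of the other genes. CPM is the reads of a gene per 1000000 reads of its library, and levels are given as log2 CPM.

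Genes of the red cell and platelet lists rose together, and the region before their start sites is shown for 3 members that the results turn on. Kel codes for a blood group protein of the red cell membrane, Hbb-bs for an adult beta globin and Pf4 for platelet factor 4, a chemokine of platelet granules. The windows run from 250 bases before to 50 bases after the RefSeq start site on GRCm38.p6, at chr6:41704276-41704575 on the minus strand, chr7:103827879-103828178 on the minus strand and chr5:90772185-90772484 on the plus strand. Capitals mark AGATAA or TGATAA, which GATA factors of the red cell and megakaryocyte lineages are known to recognise, and CACCC, a motif known to be bound by KLF1 in red cell precursors. Both strands were searched, and no 2 of the marked motifs overlap.
Kel: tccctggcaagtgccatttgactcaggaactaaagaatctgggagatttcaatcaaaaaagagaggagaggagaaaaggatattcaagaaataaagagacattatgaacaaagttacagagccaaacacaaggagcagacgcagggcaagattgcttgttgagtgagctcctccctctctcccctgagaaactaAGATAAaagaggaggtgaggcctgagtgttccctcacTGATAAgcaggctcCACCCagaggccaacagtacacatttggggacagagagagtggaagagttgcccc
Hbb-bs: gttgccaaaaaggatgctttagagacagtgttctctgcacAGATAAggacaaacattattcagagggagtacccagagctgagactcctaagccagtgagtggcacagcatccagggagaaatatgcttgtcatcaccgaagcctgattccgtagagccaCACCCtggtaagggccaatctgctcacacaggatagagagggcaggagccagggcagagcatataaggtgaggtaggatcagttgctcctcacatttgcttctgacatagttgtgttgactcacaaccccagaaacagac
Pf4: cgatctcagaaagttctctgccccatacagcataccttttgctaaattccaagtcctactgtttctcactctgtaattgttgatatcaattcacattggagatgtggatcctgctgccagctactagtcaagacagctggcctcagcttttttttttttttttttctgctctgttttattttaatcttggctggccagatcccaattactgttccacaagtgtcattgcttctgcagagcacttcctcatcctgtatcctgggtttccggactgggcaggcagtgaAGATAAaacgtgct
The Kel window holds AGATAA from position -56, TGATAA from -19 and CACCC from -5, where the start site is position 0. In the Hbb-bs window AGATAA begins at -210 and CACCC at -90, and in the Pf4 window AGATAA begins at 36. Of 47 measured red cell genes, 34 had a window in the RefSeq table, and 17 of these 34 held AGATAA or TGATAA on either strand, against 21% of the 27025 genes with a window. CACCC was found in 28 of the 34, against 59.8% of all genes. Among the platelet genes 14 of 18 had a window, 7 of them with a GATA motif and 10 with CACCC. A match is a description of the letters and was not tested as a binding site.

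RNA of red cells filled a much larger part of the libraries at month 10. A list of 47 measured red cell genes took 0.665 to 2.28% of the reads at month 0, with a median of 1.33%, and 5.31 to 44.9% at month 10, with a median of 34.9%. The mean share was 1.34% ± 0.573 (SD, n = 7) at month 0 and 30.7% ± 14.0 (SD, n = 7) at month 10. The share rose in 7 of 7 mice, by 3.51-fold in mouse 3335 and by 62.4-fold in mouse 3339, with a geometric mean of 21.1-fold (exact sign-flip permutation test, two-sided, 7 pairs, p = 0.0156). This p is the smallest that sign flips of 7 pairs can give, and it is unchanged by adjustment over the 5 shares tested. The 4 adult globin genes alone rose from 1.02% ± 0.463 to 25.8% ± 12 of the reads (SD, n = 7, exact p = 0.0156), and the rest of the list from 0.322% ± 0.111 to 4.82% ± 2.28 (SD, n = 7, exact p = 0.0156). No month 10 library overlapped the month 0 libraries in any of these 3 shares.

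**Figure D1:**
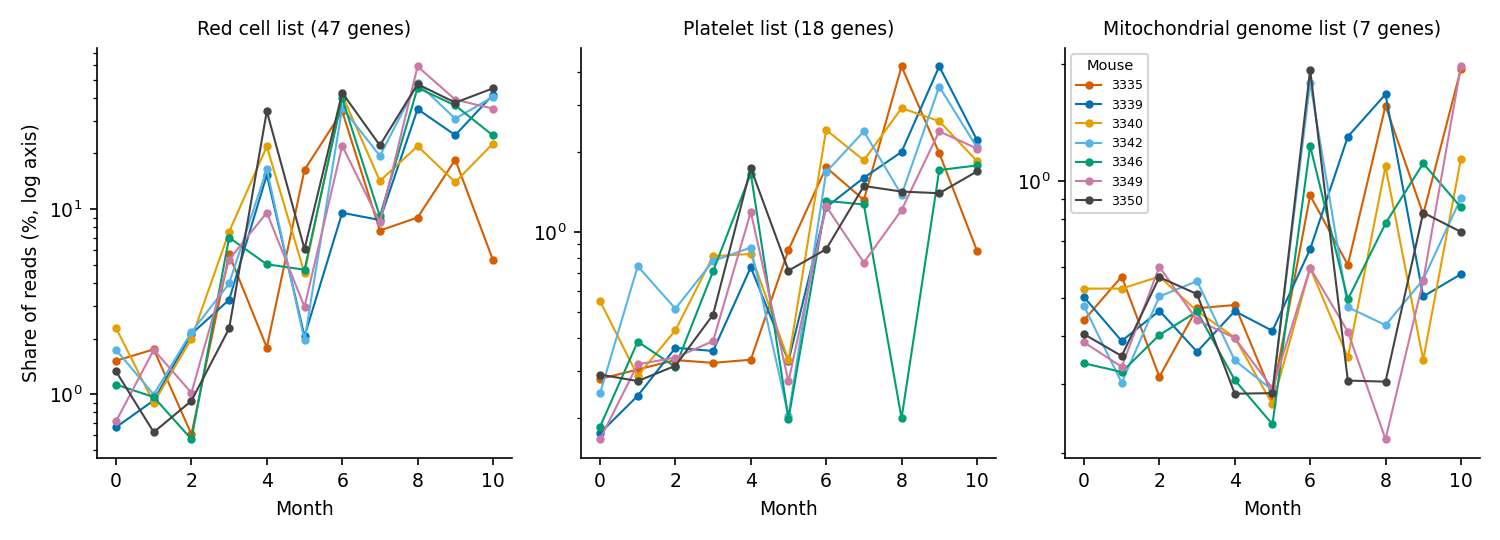
Share of reads (percent, log axis) of the red cell, platelet and mitochondrial genome lists in the 77 control libraries, by month, with 1 line per mouse. At month 10 the red cell share is 5.31% in mouse 3335 and between 22.6 and 44.9% in the other 6 mice, above the 2.28% that is the highest value at month 0.

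The rise was not steady over the months between. The median red cell share was 0.967% at month 1 and 1.02% at month 2, then 5.34% at month 3, 15.3% at month 4, 4.51% at month 5, 35.3% at month 6, 9.14% at month 7, 45.2% at month 8 and 30.8% at month 9. The libraries of months 6, 8, 9 and 10 were thus the richest in red cell RNA by their medians, and the shares of single mice ranged over 1.79 to 33.8% at month 4 and 9.01 to 59% at month 8. The median library held 22.7 M reads (M, 1000000) at month 0, 17.8 M at month 8 and 18.7 M at month 10. The part of depth in the results was not tested. Only mouse 3335 had both of its libraries under 1 of the G codes in the sample titles, and the titles do not spell out these codes. They are called library groups here, and no value within a group could be computed over several mice. A fit of all 77 control libraries with the library group as a term called 2007 genes higher and 13893 lower at month 10.

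Single red cell genes rose by up to 4.65 on the log2 scale. Hbb-bs (chr7:103826523-103827928) stood between 11.73 and 13.53 log2 CPM at month 0, with a median of 12.76, and between 14.92 and 18.11 at month 10, with a median of 17.83. Its mean rose by 4.65 ± 0.57 (log2, SE) with an adjusted p of 0.000576 (limma with the mouse as a block, Benjamini-Hochberg adjustment over all genes, a call being an adjusted p under 0.05). As deposited it rose in 7 of 7 mice. With median-ratio scaling the same gene was at 6.36 with a much larger SE of 3.77 and an adjusted p of 0.190. The gene Kel (chr6:41686329-41704334) was at -1.35 to 1.36 log2 CPM, median 0.11, at month 0 and at 3.04 to 5.27, median 4.41, at month 10, a rise of 4.37 ± 0.46 (adjusted p = 0.000448). Neither gene's groups overlapped, and mouse 3335 was the lowest at month 10 in both. Over all genes 44.3% had month 0 and month 10 libraries without overlap, 994 genes higher at month 10 and 7200 lower. Add2, which codes for beta adducin of the membrane skeleton, rose by 4.65 ± 0.47, Hbb-bt by 4.33 ± 0.52 and the alpha globin gene Hba-a1 by 4.28 ± 0.49. The alpha globin pseudogene Hba-ps4 is listed with a rise of 4.59 ± 0.55. Globin genes have near-identical copies, so reads can be split between Hba-a1 and Hba-a2 or between Hbb-bs and Hbb-bt, and their separate values are uncertain.

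Of the 47 red cell genes, 45 rose, 1 fell and 1 did not pass the test, with a median log2 change of 3.78. Over all 18508 genes 10.5% rose and 72.7% fell at an adjusted p under 0.05, with a median log2 change of -1.81. The member that fell was Uros, an enzyme of heme synthesis that other cells use too, at -1.48 ± 0.25 (adjusted p = 0.00129). The member without a call was Cpox, also of heme synthesis, at -0.06 ± 0.18 (adjusted p = 0.776). Both are named after their values were seen, as the exceptions to the list.

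Other genes among the largest increases were not on the red cell list. Tm4sf1, a membrane protein with several transmembrane segments, was at -4.16 to 0.45 log2 CPM at month 0 and at 3.15 to 4.77 at month 10, and its rise of 5.54 ± 0.53 was the largest of the genes that could be named. Apol11b, of the apolipoprotein L family, rose by 4.87 ± 0.45, Dtna (dystrobrevin alpha) by 4.83 ± 0.34, Pmp22 (a membrane protein first known from myelin) by 4.63 ± 0.41 and Slc38a5 (an amino acid transporter) by 4.51 ± 0.47. Esco2, which acetylates cohesin, rose by 4.43 ± 0.47, Aldh1a1, a retinaldehyde dehydrogenase, by 4.39 ± 0.33, Rec114, known from meiotic recombination, by 4.34 ± 0.47 and Nbea (neurobeachin) by 4.33 ± 0.25. The adjusted p was at most 0.000448 in each of these 9 genes, and each rose in 7 of 7 mice. Their month 0 and month 10 libraries did not overlap, as in 44.3% of all genes (994 genes higher and 7200 lower).

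Platelet and megakaryocyte RNA rose as well. The 18 genes of that list took 0.272% ± 0.133 of the reads at month 0 and 1.79% ± 0.453 at month 10 (SD, n = 7, geometric mean 6.89-fold, higher in 7 of 7 mice, exact p = 0.0156). All 18 members were called higher, with a median log2 change of 2.81. Pf4 (chr5:90772435-90773383) was at 6.10 to 8.26 log2 CPM, median 6.86, at month 0 and at 9.04 to 10.62, median 10.33, at month 10, a rise of 3.31 ± 0.34 (adjusted p = 0.000448). The 2 sets of libraries did not overlap, as in 44.3% of all genes, and mouse 3335 was again the lowest at month 10. Gp9 and Gp1bb, subunits of the receptor for von Willebrand factor, rose by 3.27 ± 0.35 and 3.08 ± 0.35, and Clec1b, the receptor for podoplanin, by 3.16 ± 0.32. On the stem and progenitor list 6 of 18 members rose and 5 fell, beside 10.5% and 72.7% over all genes. Those that rose most included Angpt1 (angiopoietin 1) at 3.08 ± 0.30 and Adgrg1 (an adhesion receptor) at 2.86 ± 0.29, while Flt3, a cytokine receptor of progenitors and dendritic cells, was at -2.75 ± 0.39 as deposited and did not pass relative to Ptprc (-0.36, adjusted p = 0.353, lower in 4 of 7 mice). Angpt1 and Adgrg1 moved together with the platelet list, and the part of platelet RNA in their change was not tested.

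RNA encoded by the mitochondrial genome took a larger share too. The 7 measured members rose from 0.440% ± 0.0678 to 1.16% ± 0.568 of the reads (SD, n = 7, 2.42-fold, higher in 7 of 7 mice, exact p = 0.0156), and all 7 were called higher with a median log2 change of 1.29. The gene for subunit 6 of complex I, mt-Nd6, was at 5.64 to 6.06 log2 CPM at month 0 and at 6.92 to 10.21 at month 10, a rise of 2.17 ± 0.33 (adjusted p = 0.00129). The highest of these values, 10.21, was that of mouse 3349. The complex IV gene mt-Co1 rose by 1.44 ± 0.29 and the cytochrome b gene mt-Cytb by 1.31 ± 0.29. Of 22 nuclear genes for oxidative phosphorylation, 3 rose and 14 fell as deposited, with a median of -1.29, beside 10.5% and 72.7% over all genes. That direction changed with the scale: 10 were higher and 2 lower with median-ratio scaling (median 0.41), and 14 higher and 0 lower relative to Ptprc (median 1.09).

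Genes of cell division had calls both ways as deposited. Of 26 cell cycle genes 11 rose, 10 fell and 5 did not pass, with a median of -0.21. Over all genes 10.5% rose and 72.7% fell, with a median of -1.81, so the list lay above the background. The members named here are among those that rose. The gene for cyclin A2, Ccna2, was at 0.11 to 0.71 log2 CPM at month 0 and at 1.76 to 4.81 at month 10, a rise of 3.11 ± 0.39 (adjusted p = 0.000648). Ccne2 (cyclin E2) rose by 2.74 ± 0.40 and Hmmr, a receptor for hyaluronan that is made in dividing cells, by 2.48 ± 0.36. Among replication-dependent histone genes H2bc4 rose by 2.96 ± 0.30 and H1f2 by 1.54 ± 0.21. Over the list 2 rose and 2 fell of 10 as deposited, beside the same 10.5% and 72.7%. Relative to Ptprc 9 of 10 were called higher, against 41.5% of all genes.

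**Figure D2:**
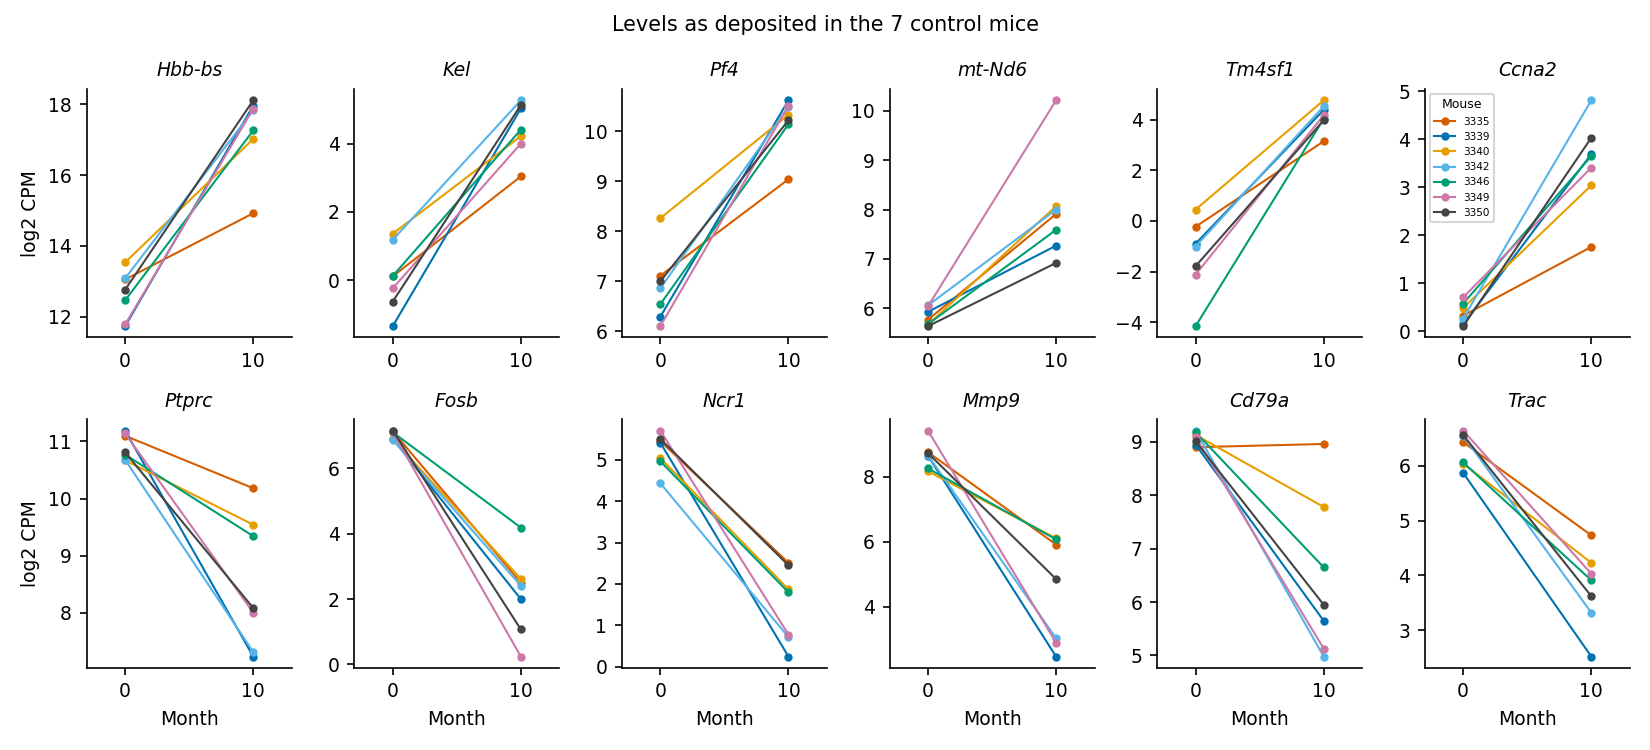
Level (log2 CPM as deposited) of 12 genes in each of the 7 control mice at month 0 and month 10, with 1 line per mouse. In Hbb-bs, Kel, Pf4, mt-Nd6, Tm4sf1 and Ccna2 all 7 lines go up, and in Ptprc, Fosb, Ncr1, Mmp9 and Trac all 7 go down; Cd79a is level in mouse 3335 and lower in the other 6.

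Genes of leukocytes were lower in CPM. Ptprc (chr1:138062859-138175756), which codes for the CD45 antigen carried by all leukocytes, was at 10.67 to 11.19 log2 CPM at month 0 and at 7.23 to 10.18 at month 10, a fall of 2.38 ± 0.40 on the log2 scale (adjusted p = 0.00129). The change was -0.92 in mouse 3335, which gained the least red cell RNA by fold, and -3.95 in mouse 3339, which gained the most. All 17 measured B cell genes, 19 of 20 T cell genes, all 16 NK and cytotoxic genes, 16 of 20 mature neutrophil genes, 18 of 20 monocyte genes and all 25 ribosomal protein genes were called lower, with medians of -2.35, -2.21, -3.05, -2.74, -2.30 and -1.94. The background of 72.7% lower calls over all genes stands beside these counts. In bulk samples fewer cells of a type and less RNA per cell cannot be told apart. The T cell receptor gene Trac went from 6.31 ± 0.31 to 3.77 ± 0.71 log2 CPM and Cd79a, a signalling subunit of the B cell receptor, from 9.07 ± 0.12 to 6.44 ± 1.47 (SD, n = 7). All measured receptor V segments fell: 19 of the heavy chain, 44 kappa, 3 lambda, 8 T cell receptor alpha and 15 beta, by medians between -2.35 and -2.86.

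The scale of the values set most of these calls. With the reads of the red cell list taken out of the library totals, 13.3% of the genes were called higher and 65.1% lower, with a median log2 change of -1.29. Median-ratio scaling, which centres each library on the typical expressed gene, called 24.3% higher and 20.6% lower with a median of -0.16. A scale relative to Ptprc, chosen after the data were seen, subtracts the log2 CPM of Ptprc in the same library and so reads each gene against the CD45 transcript. On it 41.5% were called higher and 2.11% lower, with a median of 0.57. The lower calls were 390 genes, and 232 without mouse 3349 and 220 without mouse 3350. That scale rests on 1 gene, and a change of Ptprc per leukocyte would shift every other gene alike. With the red cell share of each library as a covariate, 0 of 18508 genes were called (limma; 537 at an unadjusted p under 0.05). Share and month go together in these 14 libraries and cannot be told apart.

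**Figure D3:**
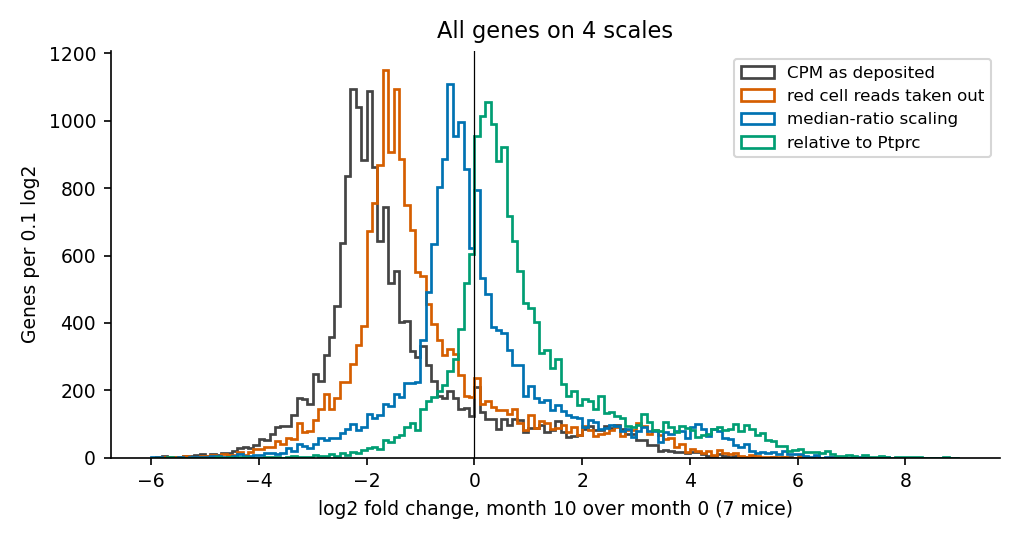
Histogram of the log2 fold change from month 0 to month 10 over all genes (genes per 0.1 log2) on 4 scales. The medians lie at -1.81 as deposited, -1.29 with red cell reads taken out, -0.16 with median-ratio scaling and 0.57 relative to Ptprc.

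With red cell reads taken out, with median-ratio scaling and relative to Ptprc the red cell and platelet lists stayed on the high side. With the red cell share as a covariate 0 genes were called, and list medians were not computed. Red cell genes called higher numbered 46 with red cell reads taken out, 45 with median-ratio scaling and 47 relative to Ptprc, of 47. The 18 platelet genes and the 7 mitochondrial genes were called higher on each of these 3 scales. Relative to Ptprc the medians were 6.17 for the red cell, 5.2 for the platelet and 3.67 for the mitochondrial list. The cell cycle and stem and progenitor lists, which were mixed as deposited, had 20 of 26 and 13 of 18 members higher and 0 lower relative to Ptprc, where 41.5% of all genes were called higher and the median over all genes was 0.57.

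The medians of the B cell, T cell and MHC class II lists lay near 0 relative to Ptprc, below the median of 0.57 over all genes. None of the 17 B cell genes was called in either direction (median 0.03), and of the 20 T cell genes 2 were called higher and 0 lower (median 0.17). The interferon gamma and MHC class II list had 5 of 18 higher and 0 lower (median 0.06). Cd79a was at -0.24 (adjusted p = 0.541), Trac at -0.16 (adjusted p = 0.601) and Cd74, the invariant chain of MHC class II, at -0.07 (adjusted p = 0.919). Other lymphocyte lists lay higher: the median was 0.97 for the regulatory T cell genes (8 of 11 called higher, 0 lower), 0.61 for inhibitory receptors (5 of 13, 0 lower), 0.50 for plasma cell genes (5 of 16, 0 lower) and 0.29 for memory and effector T cell genes (8 of 22, 2 lower). Over all genes 41.5% were called higher on this scale. Among V segments 1 kappa segment was called lower and 1 T cell receptor beta segment higher. The naive T cell list had 1 member higher and 2 lower of 16: Dapl1, a marker of naive T cells, at -1.14 ± 0.34 (adjusted p = 0.0201) and the transcription factor gene Lef1 at -0.53 ± 0.19 (adjusted p = 0.0476) were the 2 lower ones.

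Some NK cell genes were lower relative to Ptprc as well as lower in CPM. Ncr1 (chr7:4337715-4345184) codes for the activating receptor NKp46. It was at 4.43 to 5.70 log2 CPM at month 0, median 5.41, and at 0.25 to 2.51 at month 10, median 1.80. These ranges did not overlap, as in 44.3% of all genes. The change was -3.73 ± 0.34 as deposited (adjusted p = 0.000448), -2.03 with median-ratio scaling and -1.35 ± 0.26 relative to Ptprc (adjusted p = 0.00207, lower in 7 of 7 mice). The same holds for Klrb1c, the gene of the NK1.1 antigen, at -1.26 ± 0.23 relative to Ptprc, and for the lectin-like receptor genes Klra9 at -1.67 ± 0.34 and Klri2 at -1.38 ± 0.32, each lower in 7 of 7 mice, while Klra4 at -1.31 ± 0.36 was lower in 6 of 7. Few reads stand behind some of these values: over all month 10 libraries Klra9 had 40 reads and Klra4 had 84. Klri2 is not on the NK and cytotoxic list. Of the 16 members of that list 6 were called lower relative to Ptprc, 0 were called higher and 10 did not pass, against 2.11% lower calls over all genes, with a list median of -0.67. By mouse the list's median change relative to Ptprc ran from -1.36 in mouse 3335 to 0.42 in mouse 3350, which was the only mouse above 0.

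Of 20 neutrophil genes, 6 were called lower relative to Ptprc, 2 were called higher and 12 did not pass, with a median of -0.35, against 2.11% lower and 41.5% higher calls over all genes. Neutrophil genes were well measured at month 0 in samples labelled PBMC: the receptor gene Csf3r was at 10.01 ± 0.34 and S100a8, a calcium-binding protein of neutrophils and monocytes, at 8.79 ± 0.47 log2 CPM (SD, n = 7). Mmp9 (chr2:164940326-164955850), a protease of neutrophil granules, went from 8.16 to 9.41, median 8.65, to 2.47 to 6.10, median 4.85. It fell by 4.18 ± 0.60 as deposited on the log2 scale (log2 change -4.18, adjusted p = 0.00111) and was at -1.79 ± 0.30 relative to Ptprc (adjusted p = 0.000944, lower in 7 of 7 mice). Mmp8, another granule protease, was at -1.32 ± 0.25 relative to Ptprc, S100a8 at -1.52 ± 0.44, the chemokine receptor gene Cxcr2 at -1.40 ± 0.37 and Csf3r at -1.23 ± 0.33, the last 3 in 6 of 7 mice. In mouse 3346 the list's median change was 1.43 relative to Ptprc, and in the other 6 mice it ran from -1.76 to -0.30.

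**Figure D4:**
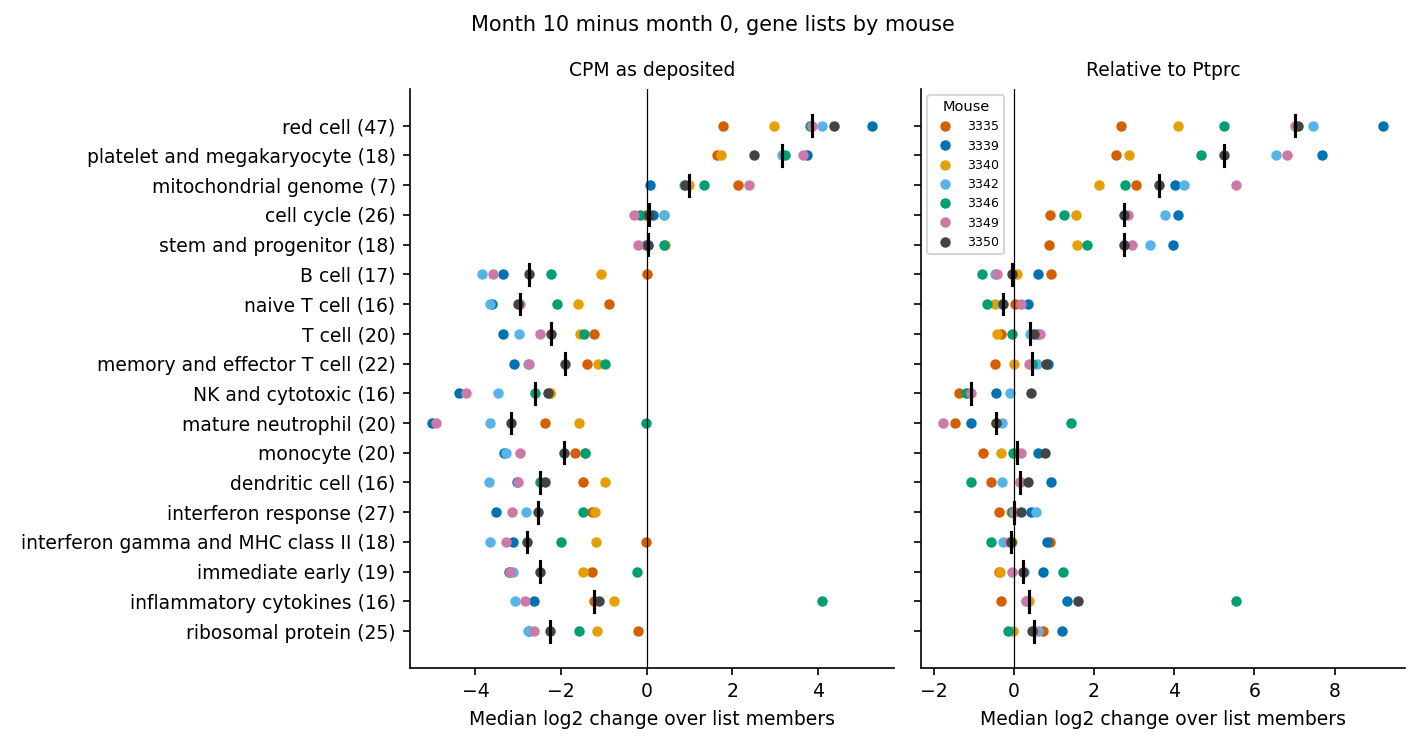
Median log2 change from month 0 to month 10 over the members of 18 gene lists (number measured in parentheses) in each mouse, as deposited (left) and relative to Ptprc (right); black bars are medians over the 7 mice. Relative to Ptprc the red cell list lies between 2.68 and 9.20 and the NK and cytotoxic list between -1.36 and 0.42, and mouse 3346 stands at 5.53 in the inflammatory cytokine list.

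The largest decrease among the genes that could be named was that of Fosb (chr7:19302696-19310118), an immediate early gene whose product is a subunit of the AP-1 transcription factor. Its levels were 6.88 to 7.16 log2 CPM at month 0, median 7.11, and 0.24 to 4.19 at month 10, median 2.41, with a change of -4.88 ± 0.42 as deposited (adjusted p = 0.000448) and of -2.50 ± 0.38 relative to Ptprc (adjusted p = 0.000556, lower in 7 of 7 mice). The related gene Fos changed by -3.97 ± 0.55 and by -1.59 ± 0.34 relative to Ptprc (adjusted p = 0.00362, lower in 7 of 7 mice). The immediate early list as a whole had calls both ways: relative to Ptprc 3 of 19 members were called higher and 2 lower, with a median of 0.16. Over all genes 41.5% were called higher and 2.11% lower on that scale, with a median of 0.57. Mybpc3, known as a myosin-binding protein of heart muscle, changed by -4.85 ± 0.48 and by -2.47 ± 0.25 relative to Ptprc (adjusted p = 0.000159). Fbxl22, an F-box protein of striated muscle, was at -1.80 ± 0.24 and Tnnt3, a troponin T of skeletal muscle, at -1.27 ± 0.26 on the same scale.

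Further genes among the largest decreases belong to monocytes and granulocytes. Fn1, which codes for fibronectin, changed by -3.74 ± 0.47 and by -1.36 ± 0.32 relative to Ptprc, and Fcgr1, the high-affinity Fc gamma receptor, by -3.61 ± 0.43 and -1.22 ± 0.24, both lower in 7 of 7 mice. Vnn3, of the vanin family of pantetheinases, was at -4.05 ± 0.69 and -1.66 ± 0.43. Over 20 monocyte genes 3 were called lower and 3 higher relative to Ptprc, with a median of 0.09. The shares over all genes were 2.11% lower and 41.5% higher, with a median of 0.57.

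Interferon-response genes split. Rsad2, which codes for the antiviral protein viperin, was at 6.90 to 8.08 log2 CPM at month 0 and at 9.10 to 12.24 at month 10, a rise of 3.58 ± 0.38 (adjusted p = 0.000448). Oas2, a sensor of double-stranded RNA, went from 4.50 to 6.04 to 0.25 to 3.18, with a change of -3.57 ± 0.52, and Mx1, an antiviral GTPase, changed by -3.01 ± 0.45. The month 0 and month 10 libraries did not overlap in Rsad2 and Oas2, in opposite directions. Over all genes 44.3% had no overlap. Of the 27 members 3 rose and 22 fell as deposited, beside 10.5% and 72.7% over all genes. Relative to Ptprc 6 were higher and 3 lower (median 0.07), against 41.5% higher and 2.11% lower over all genes (median 0.57). On that scale Oas2 was at -1.18 ± 0.25 (adjusted p = 0.00307).

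Among the inflammatory cytokine genes single libraries stood apart. As deposited 2 of 16 members rose, 4 fell and 10 did not pass, while relative to Ptprc 7 were called higher and 0 lower (median 1.33) and with median-ratio scaling 2 higher and 0 lower. Over all genes 10.5% rose and 72.7% fell as deposited. Relative to Ptprc 41.5% of all genes were called higher and 2.11% lower (median 0.57), and with median-ratio scaling 24.3% and 20.6%. The gene for interleukin 1 alpha, Il1a, rose by 3.13 ± 0.82 (adjusted p = 0.00616, higher in 6 of 7 mice), and Cxcl3, a neutrophil-attracting chemokine, by 3.73 ± 1.11 (adjusted p = 0.0114, higher in 6 of 7 mice). Il1b, the gene for interleukin 1 beta, changed by -3.33 ± 0.96 (adjusted p = 0.00963), with a change of 2.52 in mouse 3346 and changes between -6.59 and -2.08 in the other 6, and it did not pass with median-ratio scaling (-1.62, adjusted p = 0.149) or relative to Ptprc (-0.95, adjusted p = 0.292). In mouse 3346, 15 of the 16 members were higher at month 10, with a median change of 4.10, and the median of the list was between -3.07 and -0.76 in the other mice. Changes of a like size were seen in 1 other library, that of mouse 3340 at month 9, with 16 of 16 members higher and a median of 4.30. The month 9 library of mouse 3346 was at -2.36 and the month 10 library of mouse 3340 at -0.76. Among the regulatory T cell genes Lrrc32, which anchors latent TGF-beta on T cells and platelets, was the only member called higher as deposited, with a rise of 1.60 ± 0.27 (adjusted p = 0.00129), while 4 of the 11 were called higher with median-ratio scaling and 8 relative to Ptprc.

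The genes of the transgene were looked at as a check of the labels. Cbfb, the gene that the fusion allele targets, changed by -1.81 ± 0.31 as deposited and by 0.58 relative to Ptprc (adjusted p = 0.0401). Kit, the receptor that marks blasts in the model, changed by -1.36 ± 0.34 and by 1.02 relative to Ptprc (adjusted p = 0.0325), so that both genes change direction with the scale. Myh11 did not pass as deposited, at 0.12 ± 0.49 (adjusted p = 0.831), and it stood at 1.66 and 1.81 log2 CPM at month 0 in the mice labelled HW and at -2.42 to -1.83 in the other 5.

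Months 1 to 9 of the same mice, in 63 libraries that the comparison did not use, gave slopes of the same sign for most calls. As deposited 12.9% of the genes were called with a rising slope and 77.1% with a falling one, with a median of -0.27 log2 per month. Of the 1936 genes higher at month 10, 1845 (95.3%) were among the 2381 genes with a rising slope (77.5% of these), and of the 13453 lower ones 13331 (99.1%) were among the 14276 with a falling slope (93.4%). Relative to Ptprc 63.1% had a rising and 3.91% a falling slope. Of the 390 genes lower at month 10 on that scale, 203 (52.1%) were among the 723 with a falling slope (28.1% of these), and 2 were among those with a rising slope. Red cell RNA rose over the same months, so these slopes do not separate month from red cell share.

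Genes that were lower relative to Ptprc at month 10 had different courses. For Mmp9 the slope over months 1 to 9 was -0.17 ± 0.041 log2 per month relative to Ptprc (adjusted p = 0.000262), for Mybpc3 -0.16 ± 0.059 (adjusted p = 0.0146) and for Fbxl22 -0.16 ± 0.033 (adjusted p = 4.15e-05). Ncr1, at -0.04 ± 0.030 (adjusted p = 0.198), and Fosb, at -0.08 ± 0.071 (adjusted p = 0.328), did not pass. Of the 16 NK and cytotoxic genes, 6 were called with a rising slope relative to Ptprc over months 1 to 9 and 0 with a falling one, the other direction from the month 10 calls of that list, against 63.1% rising and 3.91% falling over all genes. Ncr1 was already lower than at month 0 in 7 of 7 mice at month 1, by a median of -0.91, and Fosb was at a median of -3.84 at month 5, at 0.29 at month 8 and at -3.15 at month 10. Mybpc3 had a like course despite its falling slope, with medians of -2.50 at month 5, 0.51 at month 8 and -2.40 at month 10. At month 8 Fos was at 0.30 and Tnnt3 at 0.80, while Fbxl22 was at -0.53 and Mmp9 at -1.20.

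**Figure D5:**
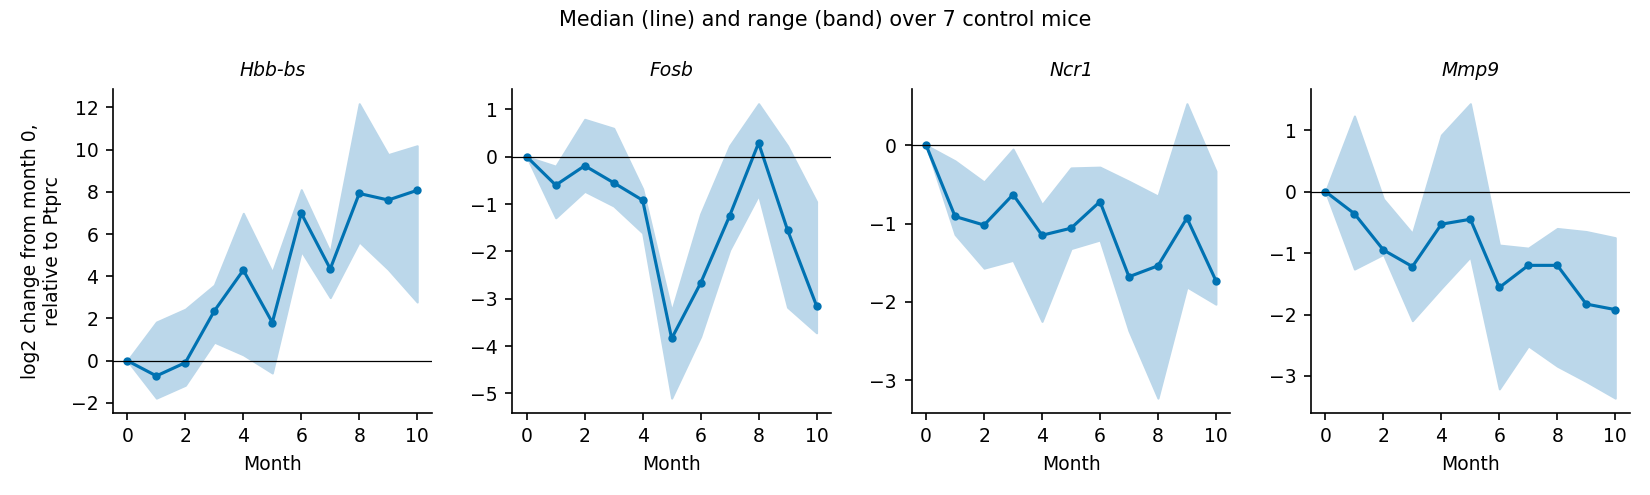
Change from month 0 of the same mouse in Hbb-bs, Fosb, Ncr1 and Mmp9 relative to Ptprc (log2), by month; the line is the median and the band the range over 7 control mice. Fosb returns to 0.29 at month 8 between medians of -3.84 at month 5 and -3.15 at month 10, while the median of Ncr1 lies below 0 from month 1 on and its range reaches 0.53 at month 9.

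With the red cell share as a covariate in months 1 to 9, 0.389% of the genes (72) were called with a rising and 1.25% (232) with a falling slope. Pmp22 rose by 0.37 ± 0.074 log2 per month (adjusted p = 0.00504), Tm4sf1 by 0.35 ± 0.081, Dtna by 0.32 ± 0.076, Nbea by 0.29 ± 0.072 and Aldh1a1 by 0.11 ± 0.030. Other genes among the largest increases did not pass: Apol11b at 0.03 (limma, adjusted p = 0.403), Slc38a5 at -0.02 (0.725), Esco2 at -0.01 (0.838) and Rec114 at -0.02 (0.543). The interferon-response gene Rsad2, at -0.03 (limma, adjusted p = 0.576), did not pass either. Fbxl22 had a slope of -0.31 ± 0.077 (adjusted p = 0.0286) and Dapl1 one of -0.33 ± 0.093 (adjusted p = 0.0490). In the test of the change from month 0 to month 10 between the 2 female and 5 male mice, 0 genes were called (limma) and 539 of 18508 had an unadjusted p under 0.05. When only genes with a mean above 1 log2 CPM were kept, the change was called higher in females for 4 and lower for 65, so the count of calls depends on that filter. Both mice labelled HW were male, and the females were labelled CW and WT. The HW mice also had the smallest rises of red cell RNA, 3.51-fold and 9.92-fold. A difference by sex was not separated from genotype or from red cell RNA.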

How the data were processed

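The authors used STAR, the build GRCm38, featureCounts of Subread and edgeR, per the submitters' processing notes (versions not given in the sources used here). Deposited values are log2 CPM. The log2 CPM table holds 18508 genes, kept by its name at 0.5 CPM in 2 samples, and 16266 had a symbol. Turning the values back gave whole reads for 100% of them (tolerance 0.01 reads). A gene with 0 reads sits at -6.52, and 59 genes had 0 reads in all 14 libraries. Depth was 17.0 to 25.2 M reads; shares of reads are given with the SD between mice. Unless named otherwise, values are fitted on deposited log2 CPM with limma 3.58.1 (R 4.3.3): mouse as a block, intensity trend, Benjamini-Hochberg adjustment over all genes, call at an adjusted p under 0.05. The block follows the mouse ID in the labels, which marks the same animal in both months. The slope fit had mouse and library group as terms.

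Every adjusted p is from limma, and errors of fold changes are SE. Named genes were the 15 largest increases and 15 largest decreases (called, same direction in 7 of 7 mice, mean log2 CPM above 1, no predicted symbol or receptor segment), and examples among the at most 4 called genes taken from each list, with Kit, Cbfb and Myh11; Ptprc, Uros and Cpox were added later. The comparison, lists and rule were chosen with earlier results of these data known. No same-group pair of libraries agreed within sampling noise (chi-square per degree of freedom at least 13.9). Coordinates and promoter windows are RefSeq's for GRCm38.p6. Scripts were tested on simulated data.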

Additional observations from a re-analysis of the deposited data

Results flagged for a closer look

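A library was set apart where its gap to the nearest of the other 6 passed the 95% critical value of Dixon's test (0.568 of the range for 7 libraries). Of 144 groups of 7 libraries looked at, 17 had such a library. The groups are genes and shares measured in the same libraries and are not independent, so this count cannot be set against a chance rate. In 14 of the 17 groups the library was the month 10 library of mouse 3335, as the lowest of its group in all but 1.

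In that library Hbb-bs was at 14.92, Hbb-bt at 12.32 and Hba-a1 at 11.85 log2 CPM, and Pf4 at 9.04, Gp9 at 8.13 and Clec1b at 7.81. Esco2 was at 1.47, Aldh1a1 at 7.07, Rec114 at 3.31, Angpt1 at 7.19, Adgrg1 at 7.80 and H2bc4 at 6.70. The heme synthesis gene Uros was its one high value, at 3.37 against at most 2.18 in the other 6. The platelet list took 0.853% of its reads, against 1.69 to 2.22% in the others.

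Without mouse 3335, 2097 genes were called higher and 13583 lower, and the mean log2 fold of the red cell share was 4.83. In mouse 3349 mt-Nd6 was at 10.21 at month 10 against at most 8.07 in the other 6. At month 0 the pseudogene Hba-ps4 was at -2.31 in mouse 3339, and the platelet list took 0.551% of the reads in mouse 3340 against at most 0.292% in the others.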

How the results depend on the processing

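The count of genes higher at month 10 (1936 as deposited) was 4015 with TMM scaling, 4503 with median-ratio scaling, 3852 with quantile normalization, 7688 relative to Ptprc, 1093 when only means above 1 log2 CPM were kept and 0 with the red cell share as a covariate. The count of lower genes (13453) was 5764, 3804, 7216 and 390 on the first 4 of these and 0 with the covariate. Without the replicate block, which pairs the libraries of a mouse, 2045 genes were higher and 13715 lower, and no named gene changed its call or direction. Leaving out each mouse gave 1719 to 2097 higher and 12816 to 13583 lower genes, and relative to Ptprc 6184 to 8184 higher and 220 to 370 lower. The red cell share kept its direction, with a mean log2 fold of 4.14 to 4.83 when 1 mouse was left out. Rising slopes (2381) numbered 5376 with TMM scaling, 1282 with means above 1 log2 CPM, 11678 relative to Ptprc and 72 with the red cell covariate, and falling slopes (14276) numbered 8699, 9324, 723 and 232; leaving out each mouse gave 2067 to 2594 and 13966 to 14329. The female against male difference had 0 calls as deposited, 4 higher and 65 lower with means above 1 log2 CPM, and 0 to 2 lower and 0 higher when 1 mouse was left out.

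Some named genes changed direction. With the red cell covariate this held for Hbb-bs (-0.07), Hbb-bt (-0.33), Hba-a1 (-0.06), Oas2 (0.11), Mx1 (0.26), Cxcr2 (0.47), S100a8 (0.11), Csf3r (0.52), Cd79a (1.49), Cd74 (1.43), Il1b (0.94), Cbfb (0.63), Ptprc (0.78) and Myh11 (-1.10). Relative to Ptprc it held for Cpox (2.33), Uros (0.91), Kit (1.02) and Cbfb (0.58), with median-ratio scaling for Cpox (1.65), Uros (0.23) and Kit (0.34), with TMM scaling for Cpox (1.46), Uros (0.04) and Kit (0.15), and with quantile normalization for Cpox (1.37) and Uros (0.03). Cpox was at 0.47 without red cell reads, 0.51 without red cell and platelet reads, 0.03 in males and between -0.11 and 0.02 when 1 mouse was left out (above 0 without mouse 3349). Myh11 was at -0.15 in males and between -0.04 and 0.50 when 1 mouse was left out (below 0 without mouse 3339, 3342 or 3350). The cause of these changes was not tested. The planned runs of edgeR and DESeq2 were not run, because the deposited unit is log2 CPM; voom of limma on the recovered reads called 2041 genes higher and 13326 lower.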

Other observations

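The gene Myh11 set the 2 mice labelled HW apart in every month. Over their 11 libraries each, mouse 3335 had at least 51 reads of Myh11 (median 75) and mouse 3340 at least 38 (median 72), while the other 5 mice had 0 to 14 reads. From month 0 to month 10 the same 2 mice had the smallest rises of red cell RNA, 3.51-fold in mouse 3335 and 9.92-fold in mouse 3340, against 22.2- to 62.4-fold in the other 5. This order did not hold in every month. At month 9 their red cell shares were 18.5 and 14.0%, against 25.1 to 39.0% in the other 5. At month 6 they were 33.8 and 41.3%, against 9.56% in mouse 3339. With 2 mice of this genotype, and noticed after the values were seen, a difference by genotype was not tested.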
